A study of Homo sapiens with 12 samples.

Results

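Cells labelled MDA-MB-231 and grown in DMEM, Dulbecco's modification of Eagle's medium, with 10% fetal bovine serum (FBS) were compared with cells of that label. The latter were grown in the minimum essential medium MEM with 10% horse serum (HS). The comparison takes 4 of the 12 arrays of the study, 2 of DMEM with FBS and 2 of MEM with HS, and was chosen by the medium and serum that the labels give, with all 47231 probes of the array. The other 8 arrays hold MEM with 10% FBS, RPMI-1640 with 10% FBS, MEM with 0.1% FBS, and MEM with 10% FBS at 50% confluence, 2 arrays each, and lent their spread to the fit. MDA-MB-231, the name the labels give the cells, is an established human line from a triple-negative breast cancer, which lacks estrogen, progesterone and HER2 receptors. Some marker values given below go against that name, and the identity of the cells was not tested. Cells of both conditions were harvested at 90% confluence, and both media had been given glutamine, pyruvate, vitamins, antibiotics and the non-essential amino acids. Medium and kind of serum differed together, so the part of each in a difference cannot be told apart from these 4 arrays alone. The labels do not say whether the 2 arrays of a condition came from separate cultures. The p-values therefore measure only the spread within the pairs of arrays, pooled over all 6 conditions, which may be technical.

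Serum supplies cells with lipoprotein cholesterol, fatty acids, transferrin iron and growth factors, and the medium supplies glucose and amino acids. When sterols run low, the SREBP transcription factors leave the endoplasmic reticulum (ER) and raise the genes of cholesterol and fatty acid synthesis, while a lack of amino acids or misfolded protein in the ER stalls translation and raises the factor ATF4. ATF4 turns on genes of amino acid synthesis and uptake, tRNA synthetases and the factor DDIT3 (CHOP), and a separate arm of the ER response through XBP1 and ATF6 raises the chaperones of the ER.

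Promoters of 7 called genes are printed here, chosen with their values known and because their windows hold response elements of the ER, amino acid and sterol responses. Each window is 300 bases of the human genome (RefSeq, GRCh38.p14), from 250 bases before to 50 bases after a start site of the gene, on the gene's strand and 5′ to 3′. The window of ASNS lies at a start site inside the annotated gene, and the others lie at the outermost annotated start. Capitals mark matches, on either strand, to the ER stress response element (ERSE, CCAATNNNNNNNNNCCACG), its shorter form (ERSE-II, ATTGGNCCACG), the amino acid response element of ATF4 (CARE, TGATGNAA) or the E-box CACGTG, which SREBP can also bind.
HERPUD1 (chr16:56931892-56932191, + strand; ERSE-II, an E-box and, on the opposite strand, CARE): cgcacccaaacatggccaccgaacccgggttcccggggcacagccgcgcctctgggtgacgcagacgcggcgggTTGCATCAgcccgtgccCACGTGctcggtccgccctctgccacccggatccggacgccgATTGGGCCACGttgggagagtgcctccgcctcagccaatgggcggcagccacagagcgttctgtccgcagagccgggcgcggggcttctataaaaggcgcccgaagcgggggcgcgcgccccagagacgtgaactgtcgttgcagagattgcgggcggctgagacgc
XBP1 (chr22:28800520-28800819, - strand; ERSE): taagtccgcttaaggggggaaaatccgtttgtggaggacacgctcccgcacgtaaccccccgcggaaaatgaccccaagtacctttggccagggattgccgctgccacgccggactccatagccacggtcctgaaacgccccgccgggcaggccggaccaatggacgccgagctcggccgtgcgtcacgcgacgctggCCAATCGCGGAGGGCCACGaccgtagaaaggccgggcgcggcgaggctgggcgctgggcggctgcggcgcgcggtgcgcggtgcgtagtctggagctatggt
HSP90B1 (chr12:103930160-103930459, + strand; E-box, and ERSE on both strands): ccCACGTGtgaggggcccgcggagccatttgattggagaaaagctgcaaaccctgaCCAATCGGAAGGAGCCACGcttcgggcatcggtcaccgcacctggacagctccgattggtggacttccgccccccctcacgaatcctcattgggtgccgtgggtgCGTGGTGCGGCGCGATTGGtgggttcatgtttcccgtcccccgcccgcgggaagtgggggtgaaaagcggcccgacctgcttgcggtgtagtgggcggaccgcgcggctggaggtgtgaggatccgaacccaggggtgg
CRELD2 (chr22:49918384-49918683, + strand; ERSE on the opposite strand): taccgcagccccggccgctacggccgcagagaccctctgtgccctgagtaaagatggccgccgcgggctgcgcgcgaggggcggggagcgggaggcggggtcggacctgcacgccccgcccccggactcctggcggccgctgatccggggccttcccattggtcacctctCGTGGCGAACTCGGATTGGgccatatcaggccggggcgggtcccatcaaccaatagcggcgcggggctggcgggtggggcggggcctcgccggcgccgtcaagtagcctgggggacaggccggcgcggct
ASNS (chr7:97872359-97872658, - strand; CARE): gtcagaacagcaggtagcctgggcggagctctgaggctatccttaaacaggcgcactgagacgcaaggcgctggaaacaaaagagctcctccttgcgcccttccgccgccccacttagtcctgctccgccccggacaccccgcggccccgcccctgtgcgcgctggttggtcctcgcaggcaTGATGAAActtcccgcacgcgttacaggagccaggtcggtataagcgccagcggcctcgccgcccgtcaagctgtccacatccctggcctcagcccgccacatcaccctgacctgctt
ATF3 (chr1:212565157-212565456, + strand; CARE): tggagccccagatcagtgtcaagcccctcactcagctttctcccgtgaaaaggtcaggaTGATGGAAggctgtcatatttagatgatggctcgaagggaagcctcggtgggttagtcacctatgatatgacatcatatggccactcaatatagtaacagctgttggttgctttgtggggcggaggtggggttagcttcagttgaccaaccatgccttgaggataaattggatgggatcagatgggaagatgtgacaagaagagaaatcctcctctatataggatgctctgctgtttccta
INSIG1 (chr7:155297628-155297927, + strand; E-box): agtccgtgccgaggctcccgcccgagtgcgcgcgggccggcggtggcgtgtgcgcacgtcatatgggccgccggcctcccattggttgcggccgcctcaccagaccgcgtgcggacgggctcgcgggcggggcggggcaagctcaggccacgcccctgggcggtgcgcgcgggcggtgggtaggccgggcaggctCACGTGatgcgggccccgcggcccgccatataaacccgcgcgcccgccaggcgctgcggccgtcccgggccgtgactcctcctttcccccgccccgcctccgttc
ERSE stood in 6 of the 18 ER chaperone promoters of the table (HSPA5, HSP90B1, CALR, CANX, XBP1 and CRELD2) and in 22 of all 27305 promoters (0.0806%), and ERSE-II in 3 (SDF2L1, HERPUD1 and HYOU1) and in 15 of all (0.0549%). HSPA5 and CANX were not called. Of the 11 called chaperone genes with a promoter, 4 held ERSE and 3 held ERSE-II. CARE stood in 5 of 24 promoters of the ATF4 list (ATF3, CHAC1, ASNS, SLC3A2 and SLC7A1), against 3.67% of all. In XBP1 the ERSE began 52 bases before the start, in ASNS the CARE 68 bases before it, and in INSIG1 the E-box 55 bases before it. The sterol element TCACNCCAC stood in 1 of 18 cholesterol promoters (SREBF2), in none of 16 fatty acid promoters and in 1.15% of all, and the E-box in 3 of the 18 (LSS, SC5DL and INSIG1) and 7.43% of all. These matches describe the letters of the windows and do not test the calls, and no binding was measured.

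Of the 47231 probes, 2379 (5.04%) were called by limma at an adjusted p under 0.05, 1254 higher and 1125 lower in DMEM with FBS, and 207 (0.438%) were also at least 2-fold apart. Counted by gene symbol with the brightest probe of each, 1016 of 31334 symbols (3.24%) were higher and 846 (2.70%) lower, and the median difference over all symbols was 0.0023 on the log2 scale. Array values of the DMEM pair correlated at 0.991 and those of the HS pair at 0.989, against 0.979 to 0.981 between the conditions. Probes above background, the 95th percentile of 463 olfactory receptor probes (6.93 to 6.99), numbered 18766 and 16685 in DMEM and 17127 and 16744 with HS. The 2 arrays of MEM with 10% FBS stood apart from the 10 others (0.914 to 0.940, against 0.964 to 0.991 between the other conditions); without them in the fit, 1845 probes were called. The count of calls was lower in each fit that left out 1 of the 4 arrays. Such a fit keeps 1 array in a condition and fewer degrees of freedom. Lost precision and the weight of a single array therefore cannot be told apart. Of 147 called genes followed by name, 70 stayed called without each of the 4 arrays in turn, and genes given below with their own array values and no further remark are among those 70.

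The markers of the line were checked on the 4 arrays. VIM (13.78 to 14.07), CD44 (11.97 to 12.26), CAV1 (11.45 to 11.75) and AXL (10.16 to 11.22), mesenchymal and basal markers of the line, lay far above background, and 4 of the 13 basal markers of the line (AXL, MSN, LAMB3 and S100A2) were lower in DMEM, AXL with a difference of -0.92 on the log2 scale (adjusted p = 0.00595; 0.0832 without DMEM replicate 1). That count was 0 without DMEM replicate 1, 2 without DMEM replicate 2 or HS replicate 2 and 1 without HS replicate 1. Of 13 luminal markers 4 lay above background in each condition (XBP1, MUC1, ERBB2 and KRT18), and ESR1, PGR, EPCAM and KRT19 lay at background. The epithelial gene CD24 lay at background too, as did CDH1 by the log2 values, though not by the deposited linear values given below. ERBB2, the gene of HER2, read 8.14 and 8.27 in DMEM and 7.98 and 7.70 with HS. EGFR, listed among the markers of the line, lay at background (6.84 to 6.91). Genes of the neural crest and melanocyte lineage, which do not define a breast line, lay above background for 14 of 22 members in DMEM and 12 of 22 with HS, with SOX10, DCT, CAPN3, MITF and EDNRB above 8 on all 4 arrays, while MLANA, SILV and TYRP1 lay at background. These values of EGFR and of the lineage genes go against the label, and the identity of the cells was not tested. The summed linear intensity of the neural crest and melanocyte list was 9911 to 10940 in DMEM and 6554 to 6617 with HS, and its part in the other differences was not tested. Of 11 fibroblast markers 1 lay above background in each condition, and of 10 blood cell markers 3 and 2 did.

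**Figure D1:**
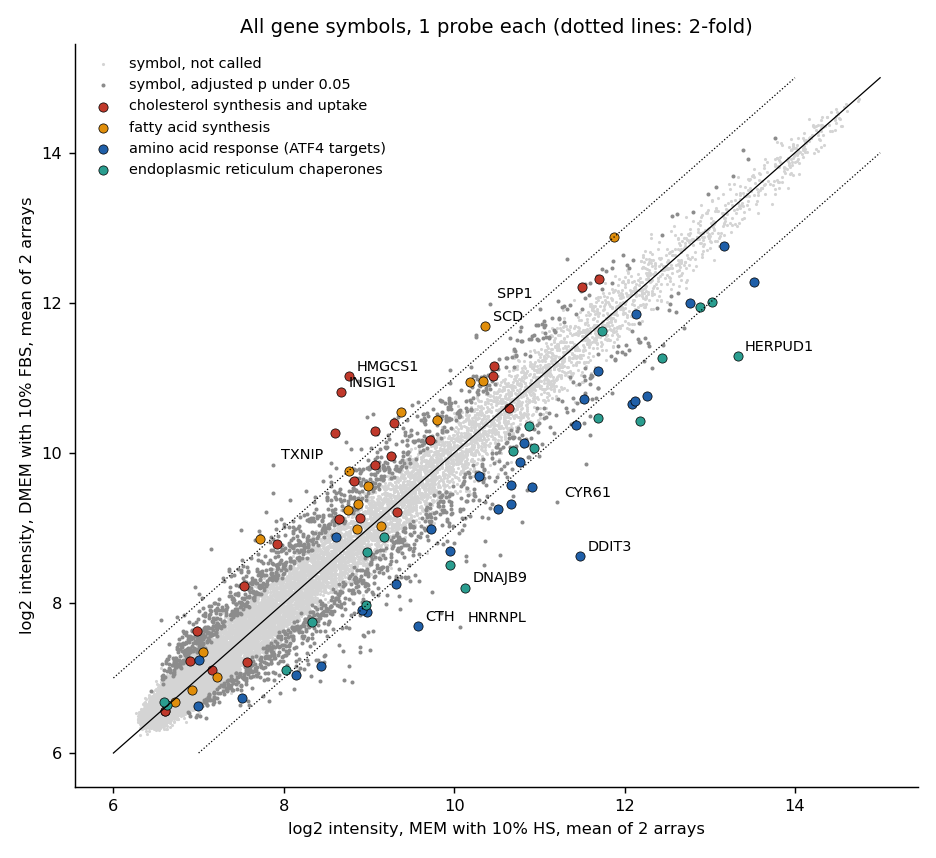
Mean log2 intensity of each gene symbol in MEM with 10% HS (x axis) against DMEM with 10% FBS (y axis), with called symbols in dark grey and 4 gene lists in colour. Called members of the cholesterol and fatty acid lists lie above the diagonal, and called members of the ATF4 and ER chaperone lists lie below it, with DDIT3 farthest from it.

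Genes of cholesterol synthesis were higher in DMEM with FBS, and HMGCS1, which makes the HMG-CoA of the mevalonate pathway, had the largest increase of all named symbols. Of 25 members of the cholesterol list, 16 were higher in DMEM, none was lower, and the median difference was 0.65 on the log2 scale. HMGCS1 read 11.09 and 10.96 in DMEM and 8.79 and 8.74 with HS on the log2 scale of intensity. The 2 pairs lay far apart, with a log2 difference of 2.26 ± 0.19 (SE), a 4.78-fold increase (adjusted p = 1.91e-05). INSIG1, the ER protein that holds SREBP back when sterols are plentiful and is itself a target of SREBP, read 10.94 and 10.68 against 8.63 and 8.72, a difference of 2.13 ± 0.16 (adjusted p = 1.29e-05). In each of these genes both DMEM arrays lay above both HS arrays, and the arrays of a pair lay close together.

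The other called enzymes of the pathway differed less than HMGCS1. SQLE, which oxidises squalene, was 2.35-fold higher (10.34 and 10.25 in DMEM against 9.08 and 9.05), and LSS, which closes the first sterol ring system, was 2.15-fold higher (10.51 and 10.30 against 9.33 and 9.26). Further called enzymes (DHCR7, MVD, EBP, MVK, FDFT1, ACAT2, SC5DL, NSDHL and SC4MOL) were higher by 0.46 to 0.80 on the log2 scale, with MVK below background on both HS arrays and so at least 1.56-fold higher. The call of SC4MOL was lost without any of the 4 arrays (0.058 to 0.167). The number of called members was 10 without DMEM replicate 1, 8 without DMEM replicate 2, 13 without HS replicate 1 and 12 without HS replicate 2. MYLIP, a ubiquitin ligase and target of the sterol receptor LXR, was also higher, at 9.07 and 8.87 in DMEM against 7.53 and 7.47 (1.47 ± 0.11, adjusted p = 1.07e-05). Of the other members of the LXR and cholesterol efflux list, 12 in all, only the lipoprotein receptor SCARB1 was called, with a 1.46-fold increase.

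Fatty acid synthesis moved the same way: 10 of 17 members were higher in DMEM and none was lower, with a median of 0.57. SCD, which puts the double bond into stearate, read 11.72 and 11.66 in DMEM against 10.37 and 10.36 with HS. The 4 values fell into 2 tight pairs, a 2.50-fold difference (adjusted p = 4.09e-05). SREBF1, the gene of the SREBP1 factor itself, was 2.20-fold higher (8.77 and 8.95 against 7.74 and 7.70), its second measured probe was 1.76-fold higher and the remaining probe lay below background. LPIN1, a phosphatidate phosphatase and SREBP target, was 2.25-fold higher, and ACSL3, which activates fatty acids, was 1.70-fold higher. Another ACSL3 probe was 1.42-fold higher (adjusted p = 0.0101). A further ACSL3 probe, also above background, was not called (0.10 on the log2 scale, adjusted p = 0.73). FASN, the fatty acid synthase, read 12.93 and 12.83 against 12.11 and 11.65, a 2.00-fold difference (adjusted p = 0.00421) that was no longer called without DMEM replicate 1 (0.0587) or HS replicate 2 (0.0501). The count of the list was 5 without DMEM replicate 1, 7 without DMEM replicate 2, 8 without HS replicate 1 and 6 without HS replicate 2. In the opposite direction, PLIN2, which coats lipid droplets, read 10.81 and 10.92 in DMEM against 11.63 and 11.75, 1.77-fold lower (adjusted p = 0.000647). It was 1 of 3 members of the PPAR and lipid droplet list that were lower, of 17 measured, with ACADVL (-0.80) and CPT1A (-0.48). Left-out single arrays moved these to -1.04 to -0.57 and -0.53 to -0.42. Probes of CPT1A disagreed: another was at least 1.165-fold higher (adjusted p = 0.0109), and a further one was not called (0.0089 on the log2 scale). Other ACADVL probes were lower (-0.59, called, and -0.52, not called).

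**Figure D2:**
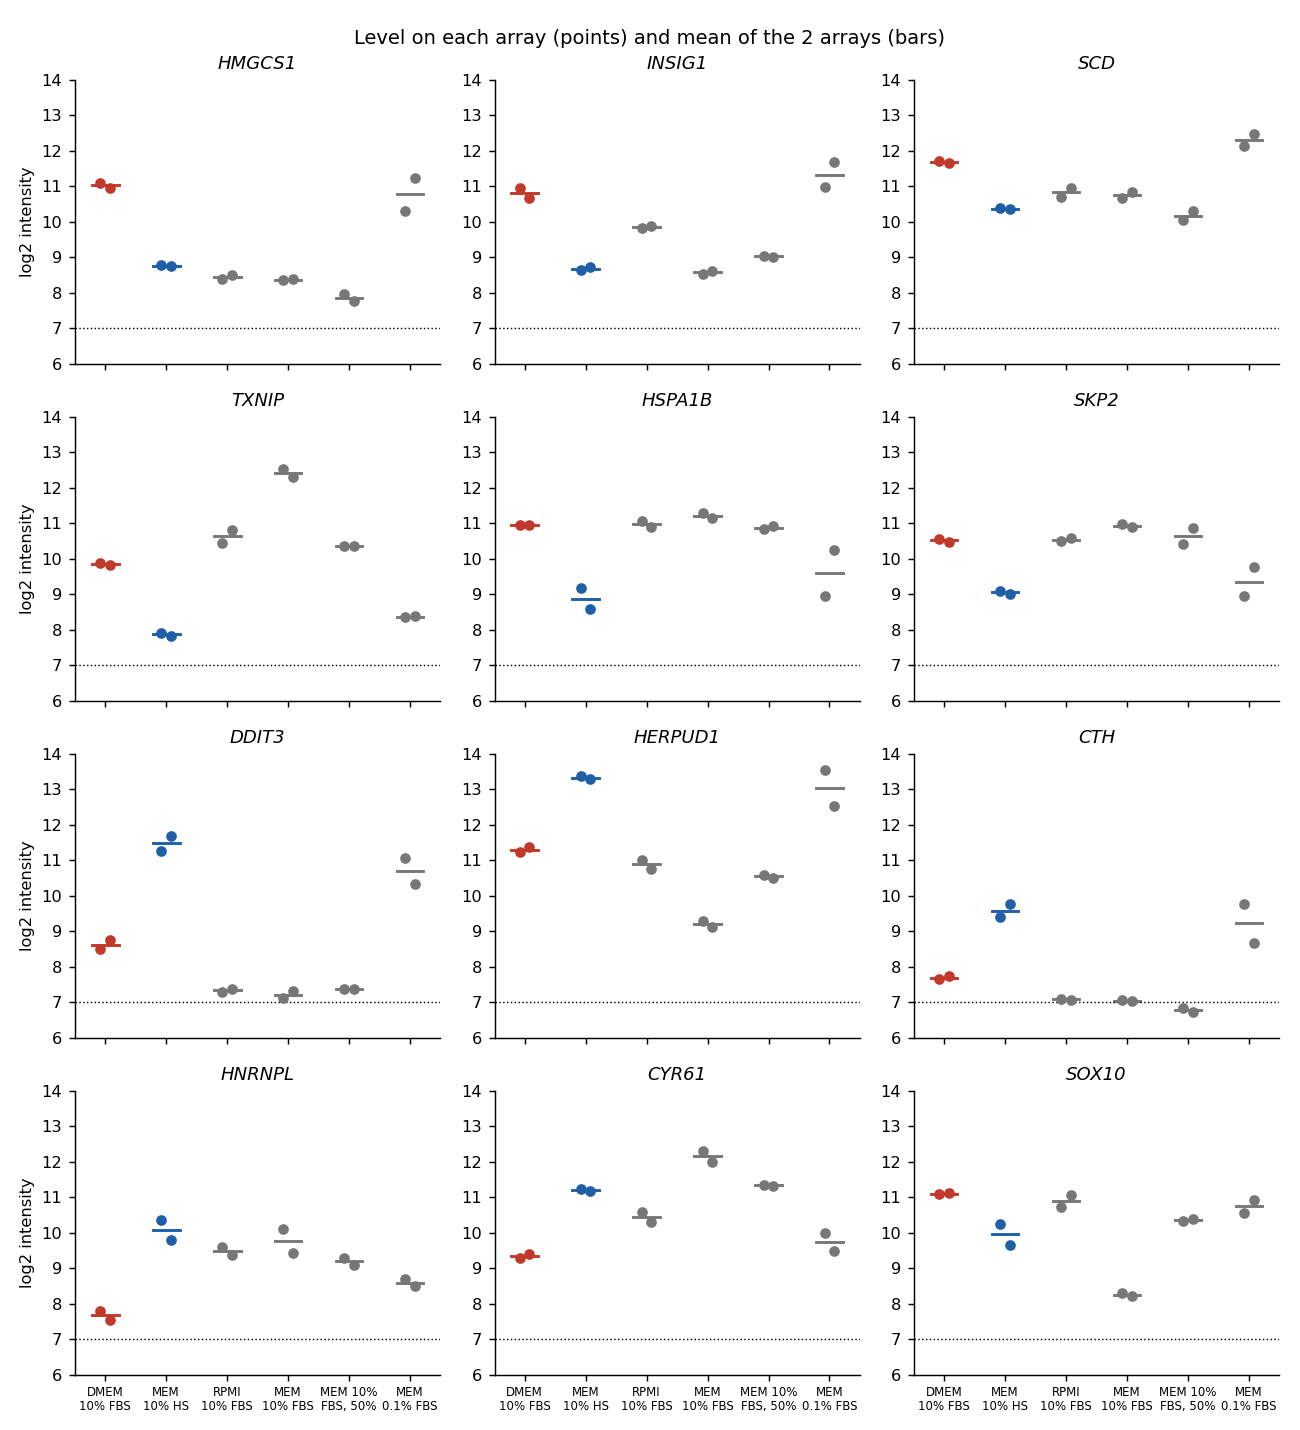
Log2 intensity of 12 genes on each of the 12 arrays, with DMEM with 10% FBS in red, MEM with 10% HS in blue and the 4 other conditions in grey; points are arrays, bars are means of 2 arrays, and the dotted line is the highest background of any array. HMGCS1 is high in DMEM and in MEM with 0.1% FBS and lies between 7.75 and 8.79 on the other 8 arrays, while DDIT3 and HERPUD1 are highest with HS and with 0.1% FBS.

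Targets of ATF4 were lower in DMEM with FBS, that is, higher with HS, and held the largest single difference. Of 30 members of the list, 23 were lower, none was higher, and the median was -1.06. DDIT3, the stress factor CHOP, read 8.48 and 8.76 in DMEM against 11.27 and 11.69 with HS. This was a log2 difference of -2.86 ± 0.19, 7.24-fold (adjusted p = 2.6e-06), and both HS arrays stood far above both DMEM arrays. ATF4 and ATF3, named here after their values were seen, were lower as well. ATF4 read 12.25 and 12.31 against 13.57 and 13.46 (adjusted p = 9.23e-05), and ATF3, a stress-induced partner factor, read 9.28 and 9.23 against 10.52 and 10.51 (adjusted p = 2.46e-05). The differences were -1.24 and -1.26 on the log2 scale, and in neither gene did the conditions overlap.

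Several enzymes of amino acid synthesis on the list were lower, and PHGDH, SHMT2 and GPT2 were not called (-0.40, -0.60 and -0.60 on the log2 scale). CTH, the last enzyme of cysteine synthesis, read 7.65 and 7.73 in DMEM against 9.41 and 9.75 with HS, 3.70-fold lower (adjusted p = 0.000261). ASNS, the asparagine synthetase whose promoter is printed above, read 10.55 and 10.76 against 12.20 and 11.97, 2.70-fold lower (adjusted p = 0.00696), and MTHFD2, a mitochondrial folate enzyme, was 2.71-fold lower (adjusted p = 0.00397). SESN2, an inhibitor of mTORC1 when leucine is scarce, was 2.43-fold lower (7.22 and 7.10 against 8.52 and 8.37), and GADD45A, a stress gene of growth arrest outside the list, was 3.71-fold lower (8.84 and 8.45 against 10.63 and 10.44). Of these, ASNS was no longer called without DMEM replicate 1 (0.0855) or DMEM replicate 2 (0.0501), and MTHFD2 was not without DMEM replicate 2 (0.0645). TRIB3, a pseudokinase induced by DDIT3, read 10.84 and 10.68 against 12.32 and 12.22 (adjusted p = 0.0141) and was not called when any 1 of the 4 arrays was left out (0.0545 to 0.133). NUPR1, a stress-induced chromatin protein, was 2.58-fold lower (adjusted p = 0.00443) and had an adjusted p of 0.0529 without either DMEM array. The number of called members was 11 without DMEM replicate 1, 8 without DMEM replicate 2, 16 without HS replicate 1 and 15 without HS replicate 2. GDF15, a secreted stress cytokine outside the list, read 9.08 and 9.10 against 10.84 and 10.76 (3.28-fold lower, adjusted p = 0.00828), and was not called without DMEM replicate 1 (0.0779) or DMEM replicate 2 (0.077).

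The aminoacyl-tRNA synthetases, which charge tRNAs with amino acids, leaned the same way with 6 of 20 members lower, none higher and a median of -0.39. In a fit of the 4 arrays alone 10 members were lower. AARS, for alanine, read 10.53 and 10.46 in DMEM against 11.75 and 11.44 with HS (2.15-fold lower, adjusted p = 0.000523), and TARS, for threonine, was 1.63-fold lower (adjusted p = 0.000745). The remaining 4 (SARS, GARS, WARS and EPRS) had adjusted p values of 0.0152 to 0.0359 and were not called when any 1 of the 4 arrays was left out, so that the count was 2 in each case.

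Chaperones and folding factors of the ER were also lower in DMEM: 11 of 19 members were lower, none was higher, and the median was -0.92. HERPUD1, which serves the degradation of misfolded ER proteins, read 11.22 and 11.36 in DMEM against 13.37 and 13.29 with HS. Its difference was 4.10-fold (adjusted p = 7.99e-05), and its second probe gave 4.73-fold. DNAJB9, a partner of the ER chaperone BiP, read 8.11 and 8.30 against 9.94 and 10.31, 3.79-fold lower (adjusted p = 0.000232). XBP1, the factor that raises ER chaperones, read 10.31 and 10.63 against 11.78 and 11.60, 2.33-fold lower (adjusted p = 0.00185). SDF2L1, an ER-resident component of the chaperone complex, was 3.39-fold lower (10.39 and 10.45 against 12.37 and 11.99) and was not called without DMEM replicate 1 (0.0519). The gene of BiP itself, HSPA5, read 7.96 and 7.98 against 8.93 and 9.003 and was not called (adjusted p = 0.0821). The probe of LOC400750, which RefSeq names HSPA5P1, a pseudogene of HSPA5, read 6.86 and 7.04 against 8.92 and 8.69 (3.62-fold lower, adjusted p = 0.000305), and signal of a close copy could reach this probe. HSP90B1 and CRELD2, whose promoters are printed above, were 1.93-fold and 1.83-fold lower (adjusted p = 0.00944 and 0.0267), and neither was called without DMEM replicate 1 (0.0886 and 0.156), DMEM replicate 2 (0.0713 and 0.142) or HS replicate 1 (0.0764 and 0.15). The count of the list was 4 without DMEM replicate 1, 5 without DMEM replicate 2, 7 without HS replicate 1 and 11 without HS replicate 2.

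**Figure D3:**
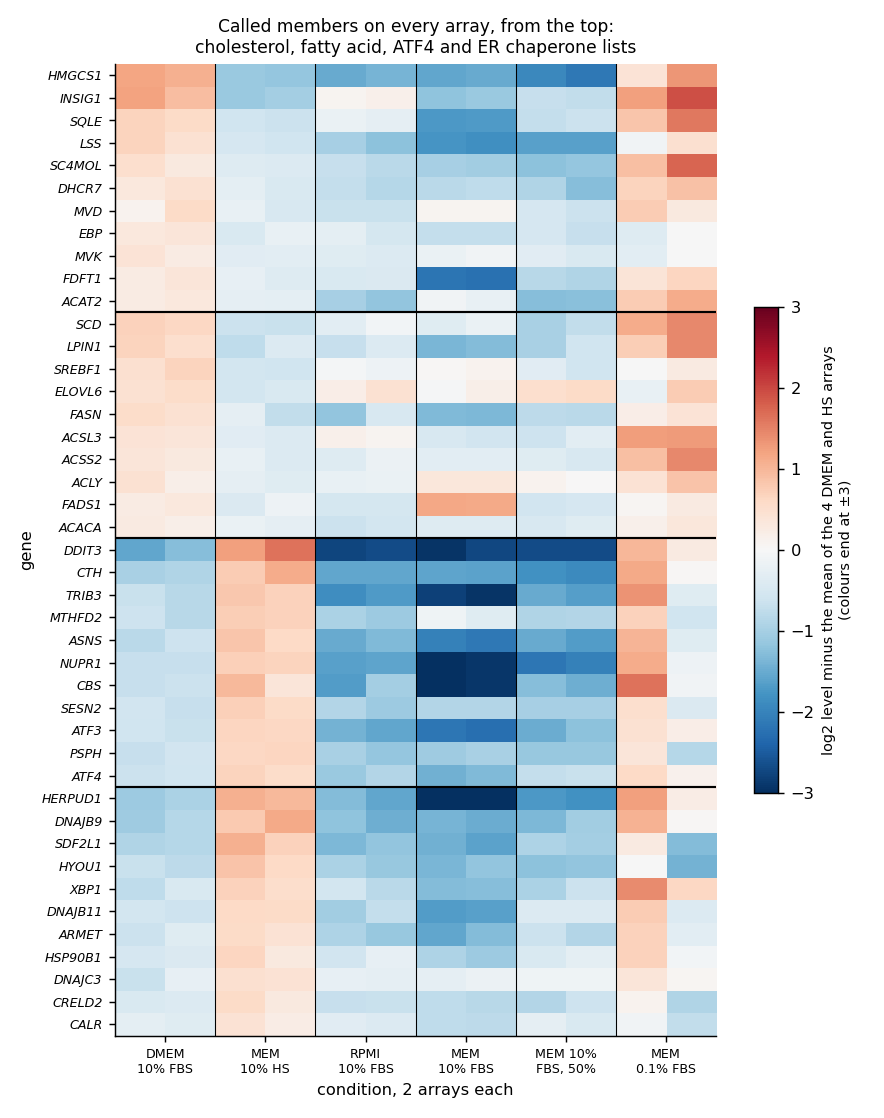
Up to 11 called members of the cholesterol, fatty acid, ATF4 and ER chaperone lists (rows) on the 12 arrays (columns, 2 per condition); colour gives the log2 level minus the gene's mean over the 4 arrays of DMEM with FBS and MEM with HS, and ends at 3 in either direction. Rows of the first 2 lists are red in DMEM and blue with HS, rows of the last 2 lists are blue in DMEM and red with HS.

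Some heat shock genes were higher in DMEM. Of 18 members of the list, cytosolic and mitochondrial, 5 were higher in DMEM, none was lower, and the median was 0.31. HSPA1B, an inducible Hsp70, read 10.96 and 10.95 in DMEM against 9.16 and 8.58 with HS, a 4.24-fold increase (adjusted p = 0.000539). Its near-identical neighbour HSPA1A, whose signal a probe may share, read 7.91 and 7.75 against 6.90 and 6.74 and was at least 1.80-fold higher. DNAJB1, the Hsp40 partner of Hsp70, was 1.81-fold higher (adjusted p = 0.00421; 0.0699 without DMEM replicate 1), and DNAJA1 was 1.63-fold higher (adjusted p = 0.00428; 0.0632 without DMEM replicate 2). The count was 3 without either DMEM array and 4 without either HS array.

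TXNIP, which blocks glucose uptake and is raised by glucose through the factor MondoA, had the smallest p of the genes named. It read 9.87 and 9.81 in DMEM against 7.92 and 7.83 with HS, a difference of 1.97 ± 0.12 (3.91-fold, adjusted p = 8.55e-07). The other 8 genes on the list of MondoA, its partners and its targets were not called, and the median of the list was 0.04. PFKFB4 and PFKFB3, which make the allosteric activator of glycolysis, were 2.24-fold higher (9.69 and 9.56 against 8.63 and 8.30) and 2.14-fold higher (10.40 and 10.37 against 9.42 and 9.15), and of the 21 genes of glycolysis and glucose uptake they were joined only by the transporter SLC2A3 (1.46-fold; not called without DMEM replicate 1 at 0.1 or HS replicate 2 at 0.0655), a count of 3 that was 5 without HS replicate 1. VEGFA, the angiogenic factor that both hypoxia and ATF4 raise, was 2.46-fold lower in DMEM (8.32 and 8.27 against 9.67 and 9.52, adjusted p = 0.00434; 0.0561 without DMEM replicate 2), while 3 other hypoxia genes of the 20 were higher, a count of 1 without DMEM replicate 1 and of 0 without DMEM replicate 2. TFRC, the transferrin receptor for iron uptake, read 12.68 and 12.49 against 11.33 and 11.33 (2.38-fold higher, adjusted p = 1.91e-05), 1 of 2 called among 14 iron genes (1 of them without any of the 4 arrays in turn).

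A minority of cell cycle genes were called, each of them higher in DMEM with FBS. In the G1/S and replication list 7 of 24 members were higher, in the G2/M list 9 of 26, with none lower in either and medians of 0.38 and 0.41. SKP2, the ubiquitin ligase subunit that degrades p27, read 10.56 and 10.48 in DMEM against 9.08 and 9.02 with HS, a 2.78-fold increase (adjusted p = 0.000465). AURKA, a mitotic kinase, was 1.93-fold higher (11.13 and 11.15 against 10.29 and 10.10), and SLBP, which binds histone mRNA, was 1.81-fold higher (9.79 and 9.77 against 8.91 and 8.94). CDKN2D, an inhibitor of CDK4 and CDK6, was higher too (9.04 and 9.21 against 8.01 and 7.93, 2.23-fold). CCNE2, a cyclin of S phase entry, was 2.27-fold higher (adjusted p = 0.00374; 0.0618 without DMEM replicate 1). The G1/S count was 1 without DMEM replicate 1, 4 without DMEM replicate 2, 6 without HS replicate 1 and 3 without HS replicate 2, and the G2/M count was 3 without DMEM replicate 1, 6 without DMEM replicate 2, 8 without HS replicate 1 and 7 without HS replicate 2. PAQR4 (10.43 and 10.52 against 9.14 and 8.81) and CBX2, a Polycomb subunit (9.19 and 9.23 against 7.95 and 7.62), were among the 15 largest increases as well.

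The largest decreases also held genes of no list. HNRNPL, a regulator of splicing, read 7.80 and 7.55 in DMEM against 10.35 and 9.79 with HS, 5.26-fold lower (adjusted p = 1.64e-05). HNRNPH1, another splicing factor, was measured by probes under its current and its older symbol HNRPH1: the first read 9.78 and 9.93 against 11.76 and 11.34 (3.23-fold lower), the second 8.07 and 7.66 against 9.98 and 9.71 (3.96-fold lower), and the remaining probe lay below background. LOC644422, which RefSeq names SRSF6P2, was 3.58-fold lower (8.32 and 8.69 against 10.35 and 10.35), and its name marks a copy of a splicing factor gene whose signal it may share. The DMEM pair was the lower one in each case. RPMI-1640 with FBS also lay above DMEM, with DMEM minus RPMI-1640 at -1.80 for HNRNPL (adjusted p = 6.56e-05), -1.25 for HNRNPH1 (0.00107) and -1.21 for LOC644422 (0.00138). TRIM5, an antiviral restriction factor, read 6.94 and 7.01 against 8.81 and 8.59 (3.31-fold lower), and its 2 other probes were lower too (-1.05 and -0.35 on the log2 scale). TES, a focal adhesion protein, was 3.11-fold lower (7.53 and 7.22 against 9.05 and 8.97), with a second probe at -0.77 and the remaining one, below background, not called.

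Genes downstream of growth factors, adhesion and TGF-beta went both ways. CYR61, a secreted matrix protein and target of YAP, read 9.29 and 9.39 in DMEM against 11.22 and 11.18 with HS, 3.63-fold lower (adjusted p = 1.5e-05). Of 22 YAP/TAZ targets 5 were lower and none was higher, CRIM1 among them (1.74-fold), and the count was 3 without DMEM replicate 1, 4 without DMEM replicate 2 or HS replicate 2, and 5 without HS replicate 1. FOSL1, a subunit of AP-1, was 2.27-fold lower (8.24 and 8.36 against 9.60 and 9.36) and MYC, a growth-promoting factor, 2.11-fold lower (9.05 and 9.02 against 10.11 and 10.11, adjusted p = 1.85e-05). These were 2 of 6 immediate early and ERK feedback genes that were lower, of 27, and the count was 2 without DMEM replicate 1, 3 without DMEM replicate 2 and 4 without either HS array. ERRFI1, an inhibitor of the EGF receptor, was 2.13-fold lower. In contrast ID3, a target of BMP, read 9.38 and 9.38 against 8.03 and 8.11 (2.48-fold higher, adjusted p = 1.31e-05), and BAMBI, a decoy receptor of the same pathway, read 11.59 and 11.57 against 10.28 and 10.23 (2.50-fold higher). THBS1, a matrix glycoprotein raised by TGF-beta, was 1.92-fold lower (10.75 and 10.71 against 11.85 and 11.49). SGK1, a kinase induced by serum and glucocorticoid, was 1.84-fold higher, and VAV3, a guanine nucleotide exchange factor, was 2.98-fold higher (8.73 and 8.72 against 6.99 and 7.30).

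Among secreted and interferon genes the calls went both ways. SPP1, which encodes osteopontin, read 12.07 and 11.90 in DMEM against 10.19 and 10.65 with HS, a 2.96-fold increase (adjusted p = 4.26e-05). The chemokine CCL2 was 2.68-fold higher (10.17 and 10.13 against 8.59 and 8.87, adjusted p = 0.00846) and was not called without DMEM replicate 1 (0.0794), DMEM replicate 2 (0.075) or HS replicate 1 (0.0512). The cytokines CSF2 (7.13 and 7.47 against 8.42 and 8.55) and IL24 (7.45 and 7.42 against 8.78 and 8.51) were 2.27-fold and 2.31-fold lower, and with CCL2 they were the only 3 called of 32 chemokines, cytokines and NF-kB targets. Of 25 interferon-stimulated genes 6 were higher and 2 lower in DMEM: IFIT1 and IFIT3 were 1.74-fold and 1.59-fold higher, IFI6 2.42-fold lower (9.26 and 9.58 against 10.84 and 10.56) and the factor IRF1 1.80-fold lower. The 6 were 2 without DMEM replicate 1 or HS replicate 2, 3 without DMEM replicate 2 and 4 without HS replicate 1.

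Lineage genes were called in part. SNAI2, the mesenchymal transcription factor Slug, read 9.48 and 9.46 in DMEM against 7.77 and 7.97 with HS, a 3.02-fold increase (adjusted p = 0.00105), and among the 22 mesenchymal markers only CDH2 was also called, with a difference of -0.47 (adjusted p = 0.0434, and 0.108 to 0.188 when any 1 of the 4 arrays was left out). Of 22 neural crest and melanocyte genes 8 were higher in DMEM and none was lower. SOX10, the master factor of that lineage, read 11.09 and 11.11 against 10.25 and 9.65 (2.22-fold, adjusted p = 0.000899), and DCT, an enzyme of melanin synthesis, read 10.67 and 10.23 against 9.25 and 9.33 (2.24-fold, adjusted p = 0.000738). CAPN3 was 2.40-fold and the endothelin receptor EDNRB 1.62-fold higher. The list's count was 5 without DMEM replicate 1, 7 without DMEM replicate 2, 7 without HS replicate 1 and 6 without HS replicate 2, and its median was 0.16. Among epithelial markers 3 of 27 were lower in DMEM (1 without DMEM replicate 1 or HS replicate 2), led by the tight junction gene CLDN1 (8.99 and 9.28 against 10.30 and 10.50; adjusted p = 0.00854; 0.107 without DMEM replicate 1 and 0.0594 without HS replicate 2) and the keratin KRT7 (7.01 and 7.18 against 8.11 and 8.22, 2.10-fold). PRAME, a cancer/testis antigen, was 2.48-fold higher (9.94 and 9.79 against 8.63 and 8.48), the only one called of 25.

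**Figure D4:**
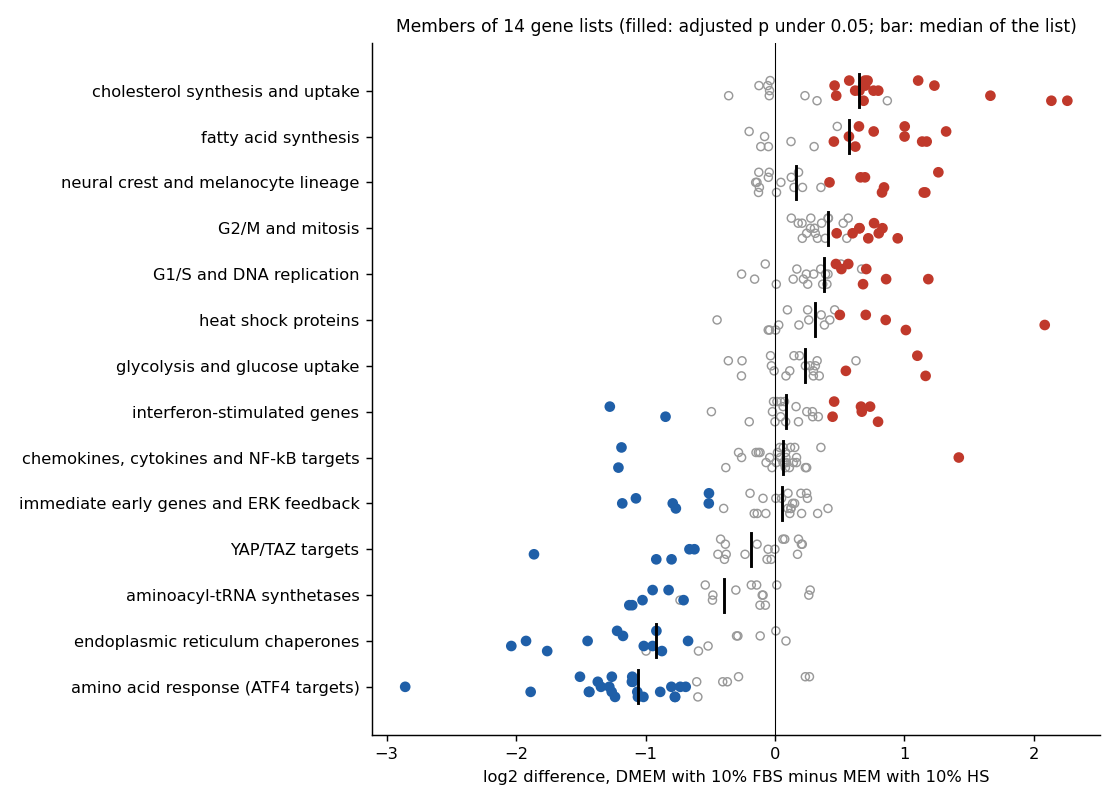
Log2 difference (DMEM with 10% FBS minus MEM with 10% HS, x axis) of each measured member of 14 gene lists; filled points were called, open points were not, and the bar is the median of the list. The medians run from 0.65 for cholesterol synthesis to -1.06 for the ATF4 targets, against 0.0023 over all symbols.

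The genes that the study followed by other assays differed little between these 2 conditions. IL8, a neutrophil chemokine, read 7.46 and 7.58 in DMEM against 7.66 and 8.15 with HS (adjusted p = 0.303). These values were low but above the background of 6.93 to 6.99. S100A4, a calcium-binding protein, read 12.31 and 12.23 against 12.14 and 12.27 (adjusted p = 0.88), VIM, the mesenchymal intermediate filament, 13.87 and 13.79 against 14.07 and 13.78, and CD44, a hyaluronan receptor, 12.26 and 12.003 against 11.97 and 12.06. CDH1 and CD24, epithelial and surface markers, lay at background by the log2 values. ACTB, the actin reference, read 14.48 and 14.60 against 14.51 and 14.47. For 8 probes the deposited linear and log2 tables exchange the values of a pair of probes, among them CDH1 with CD82, VIM with HLA-DRA and a second VIM probe with TNFRSF14. Read from the linear table, CDH1 had 7.40 and 7.58 against 7.89 and 7.498, above background and not called (adjusted p = 0.512). The VIM probe given above had 13.06 and 12.96 against 13.01 and 13.16 there (adjusted p = 0.803). Of these 3 exchanges 1 carried a call: a difference of 0.67 (adjusted p = 0.00175) belongs to TNFRSF14 by the log2 table and to the second VIM probe by the linear table.

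In the S100 family of calcium-binding proteins 1 of 16 members (S100A1) was higher and 4 (S100A2, S100A5, S100A11 and S100A16) were lower, led by S100A16 at -0.88 (adjusted p = 0.0262). The 4 lower members were 0 without DMEM replicate 1, 1 without DMEM replicate 2 or HS replicate 1 and 3 without HS replicate 2. Of 20 FOXO and insulin signaling targets 3 were higher (IRS1, KLF6 and TXNIP) and 1 lower (GADD45A), and of 20 p53 targets 3 were lower (SESN2, GDF15 and GADD45A). Of 22 TGF-beta and BMP targets 3 were higher and 1 lower, and the 3 were 1 without DMEM replicate 2 and 2 without DMEM replicate 1 or HS replicate 2. The lists of the pentose phosphate pathway, MHC class I, the glucocorticoid receptor, retinoic acid, lysosomes, integrins, matrix proteases and metastasis genes held 1 or 2 calls each. By limma's adjusted p no member was called among 14 MHC class II genes, 10 genes of the IGF system, 10 targets of the aryl hydrocarbon receptor, 12 metallothionein and zinc genes, 24 genes of ribosome biogenesis or 17 collagens, and at an unadjusted p under 0.05 these lists held 3, 1, 1, 0, 3 and 3 members. Over the whole array, 7814 of 47231 probes had an unadjusted limma p under 0.05. The 2 called genes of 30 in oxidative phosphorylation were not called without either DMEM array, and neither were the 2 called NRF2 targets of 22.

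The other conditions differ in medium, in serum or its amount, or in confluence, and their values stand beside the comparison with the limit that they share arrays with it. In RPMI-1640 with 10% FBS, which differs from DMEM in medium only, the symbols called in DMEM minus RPMI-1640 were 2.94% higher and 2.89% lower, and in RPMI-1640 minus HS, where medium and serum both differ, 4.93% higher and 4.32% lower. MEM with 10% FBS differs from the HS condition in serum only, as the study describes the cultures. MEM minus HS had 24.7% of 31334 symbols called in either direction (3989 higher and 3764 lower). DMEM minus MEM had 23.9% called (3724 higher and 3762 lower). The MEM arrays were the pair that stood apart, so neither count can be read as serum or medium alone. On those arrays IL8 read 11.81 and 11.56, against 7.66 and 8.15 with HS, AXL 13.04 and 12.39, against 11.22 and 11.14, and 11 of 14 MHC class II genes were lower than with HS, with a median of -1.84. Their part in the MEM comparisons was not tested. In the cholesterol list 16 of 25 members were higher in DMEM than in RPMI-1640, and 15 were higher and 1 lower in DMEM than in MEM with FBS, while RPMI-1640 against HS had 2 higher and 5 lower and MEM with FBS against HS 2 higher and 8 lower. HMGCS1 read 8.38 and 8.51 in RPMI-1640, 8.35 and 8.38 in MEM with FBS, 7.95 and 7.75 at 50% confluence and 10.31 and 11.23 with 0.1% FBS. DMEM and 0.1% FBS were thus the conditions in which it was high, and HS lay close to the other conditions with 10% FBS. The fatty acid list had 9 of 17 higher in DMEM than in RPMI-1640, and 4 higher and 2 lower in RPMI-1640 than with HS. It had 8 higher and 3 lower in MEM with FBS than with HS, and 8 higher and 5 lower in DMEM than in MEM with FBS.

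The ATF4 list gave a different pattern. In RPMI-1640 against HS 23 of 30 members were lower and 1 higher, in MEM with FBS against HS also 23 lower and 1 higher, whereas DMEM against RPMI-1640 had 5 higher and none lower and DMEM against MEM with FBS 12 higher and 4 lower. DDIT3 read 7.30 and 7.37 in RPMI-1640, 7.10 and 7.32 in MEM with FBS and 11.05 and 10.32 with 0.1% FBS, so that HS and 0.1% FBS were the high conditions and DMEM lay 1.29 above RPMI-1640 (adjusted p = 0.000714). The ER chaperones had 12 of 19 lower in RPMI-1640 than with HS, 15 lower in MEM with FBS than with HS, none called between DMEM and RPMI-1640, and 5 higher and 1 lower in DMEM than in MEM with FBS. HERPUD1 read 11.02 and 10.75 in RPMI-1640, 9.28 and 9.12 in MEM with FBS and 13.55 and 12.53 with 0.1% FBS. Heat shock genes had 8 of 18 higher in RPMI-1640 than with HS and 2 lower in DMEM than in RPMI-1640, and the G2/M list had 17 of 26 higher in RPMI-1640 than with HS and 7 lower in DMEM than in RPMI-1640. Against MEM with FBS, DMEM had 6 heat shock genes higher and 5 lower and 9 G2/M genes higher and 5 lower, and MEM with FBS against HS had 8 higher and 4 lower and 11 higher and 6 lower. TXNIP read 10.45 and 10.81 in RPMI-1640, 12.53 and 12.31 in MEM with FBS and 8.35 and 8.38 with 0.1% FBS, so that only 0.1% FBS lay near the HS level. SOX10 read 10.73 and 11.05 in RPMI-1640 and 8.29 and 8.22 in MEM with FBS, where it was lowest of the 6 conditions.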

How the data were processed

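Total RNA of the cells was labelled and hybridised to 12 Illumina HumanHT-12 beadchip arrays, 2 for each of 6 conditions. The authors deposited linear intensity values and log2 values of 47231 probes, per the labels exported from BeadStudio, and per the paper's methods quantile-normalized with limma. The deposited intensity and log2 tables, compared here, hold the same normalized values but for 8 probes whose values are exchanged in pairs, and the log2 table was used; the deposited value table of the series held the same log2 values. Scan dates and slides were not used here, and depth has no meaning for arrays, where the number of arrays limits the precision.

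A mean per condition was fitted to all 12 arrays with limma 3.58.1 in R 4.3.3, with 6 residual degrees of freedom, and DMEM minus HS was tested with Benjamini-Hochberg adjustment over 47231 probes; a call is an adjusted p under 0.05. Errors printed after ± are standard errors of the fit. They pool the spread of all 6 conditions, so a loose pair outside the comparison can widen them. For GDF15 the standard error was 0.34, while the standard deviations were 0.014 in DMEM and 0.055 with HS. The 0.1% FBS arrays of GDF15 read 11.51 and 9.72. The part of the other conditions in lost calls was not tested. This differs from the study's methods, which used a two-sample t-test at P under 0.001 and a permutation test of whole profiles; the t-test was run as an alternative, and the permutation test was not run. Each symbol was represented by its brightest probe, 3270 probes have no symbol, and symbols are those of the array's design. A probe below background on both arrays of a condition has only a bound there, and such folds are written as "at least": the brighter mean against the higher of background and the dim probe's own value. Background was taken from 463 probes of olfactory receptors, at their 95th percentile on each array.

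Named genes were the 15 called symbols with the largest increases and the 15 with the largest decreases above background, 6 genes of the study with ACTB, up to 6 called members per gene list by size, and the cell type markers; ATF4, ATF3, HSP90B1, CRELD2 and all genes given only as a range, as values that were not called or by their promoter were named after their values were seen. Some genes that the rule names are not reported here, though list counts include them. The comparison, the members and the lists were chosen with earlier results of these data known. Data of 47231 probes were simulated with normal noise, with 200 changed probes in each of 3 draws. The changed probes were taken only from those with a mean above the highest background. Of these, the fit called 37.31% of 1.5-fold, 84.58% of 2-fold and 100% of 4-fold changes of DMEM against HS. It made 18 false calls over the 3 draws, and changes of dimmer probes were not simulated. Alternatives changed the table, background correction, scaling, filter, probes per symbol, arrays in the fit, variance model, replicate block and test. Promoters are RefSeq sequences searched in Python 3.11.15 on both strands by exact letters.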

Additional observations from a re-analysis of the deposited data

How the results depend on the processing

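The table used, a common median or 75th percentile, a filter to probes above background, 1 probe per symbol, the 4 arrays alone, the fit without the MEM arrays and the trended robust variance kept the counts within 1.5 times of 2379 called probes and of 207 called probes at least 2-fold apart. Background correction by normexp gave 981 and 533. The methods' t-test on 4 arrays gave 126 and 20 at an unadjusted P under 0.001 and 0 and 0 after adjustment. By limma 7814 probes had an unadjusted p under 0.05, a looser cut, so that count cannot be set against the 126. Without single arrays the counts were 965 to 1957 and 175 to 232. No named difference that was called turned its sign, and of 147 called named genes 98 stayed called with normexp, 131 with the trended variance, 133 without the MEM arrays, and 79, 90, 114 and 107 without DMEM replicate 1, DMEM replicate 2, HS replicate 1 and HS replicate 2. For the lists, normexp left 8 of the 16 cholesterol calls and 6 of 10 fatty acid calls as counts. It left 15 of 23 ATF4 calls, 9 of 11 ER chaperone calls and 2 of 9 G2/M calls, and the cause was not tested. With the 4 arrays alone, where 1910 probes were called, these list counts were 16, 10, 25, 13 and 9 in the same order.

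Deviations of same-numbered DMEM and HS arrays from their means correlated at -0.146 over 12270 probes above background on every array, and those of the other pairs of conditions at -0.098 to 0.296, so that the numbers were not taken to pair the arrays. With the replicate block 2487 probes were called, and 207 of them at least 2-fold apart. With the crossed pairing, added after seeing the data, these counts were 2308 and 206. Groups of 2 arrays bear no outlier test, and signal over background limits the dimmest genes, whose folds are bounds.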
